A study of Mus musculus with 8 samples.

Results

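The genes examined were the 30 genes of mitochondrial protein import whose symbols begin with Timm or Tomm and a number (pseudogenes and antisense genes left out), together with Pam16, Dnajc19, Grpel1, Pmpca and Pmpcb, out of 55359 genes listed. They were followed in RNA sequencing of sorted thymocytes of the DP stage (CD4+CD8+, with absent to intermediate surface TCR beta) from mice 5 weeks old. The 4 control samples were LSL-Sting1-N153S/+ without Cre, replicates 1 to 4. The 4 Lck-cre samples, replicates 5 to 8, were LSL-Sting1-N153S with Lck-cre. Replicates 1 and 5 were female and the other 6 samples male. LSL-Sting1-N153S carries a gain-of-function form of STING, the receptor for cyclic dinucleotides, behind a stop cassette that Cre removes. Cre was driven by the Lck promoter, which is active in early T cell progenitors, so other cells of the thymus were not targeted. All 8 samples carried the LSL-Sting1-N153S allele, and no sample with Cre alone is among them, so effects of Cre and of the mutant protein cannot be told apart. Nothing in the sources used here says that each sample came from a separate mouse, so the p-values measure the spread between samples.

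Nearly all mitochondrial proteins are encoded in the nucleus, made in the cytosol and imported. Precursors bind receptors of the translocase of the outer membrane (TOM) and pass its channel. Proteins with an N-terminal presequence then cross the inner membrane through the TIM23 complex, are pulled in by a motor built on the chaperone mortalin, and lose the presequence to the matrix processing peptidase. Carrier proteins with several membrane spans are escorted across the intermembrane space by hexamers of small Tim proteins and inserted by the TIM22 complex. Small Tims themselves are folded in the intermembrane space by a disulfide relay.

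For 27 of the 30 genes, RefSeq promoter windows of GRCm38.p6 (250 bases before to 50 after the transcription start) were matched by symbol. Tomm7, Timm21 and Tomm40l were not matched. The windows of the 3 import genes with the smallest adjusted p in the comparison below are shown with that of Timm8b, the relative of Timm8a1 in the same family. Capitals mark matches on either strand to 4 motifs, namely CACGTG (E-box), CGCATGCG (core of the NRF1 motif), CCGGAAG (ETS) and CCAAT, which do not contain each other. The windows lie at chrX:134541621-134541920 on the minus strand (Timm8a1), chr12:71136626-71136925 on the minus strand (Timm9), chr7:28311997-28312296 on the minus strand (Timm50) and chr9:50603651-50603950 on the plus strand (Timm8b), each printed 5′ to 3′ along its gene.
Timm8a1: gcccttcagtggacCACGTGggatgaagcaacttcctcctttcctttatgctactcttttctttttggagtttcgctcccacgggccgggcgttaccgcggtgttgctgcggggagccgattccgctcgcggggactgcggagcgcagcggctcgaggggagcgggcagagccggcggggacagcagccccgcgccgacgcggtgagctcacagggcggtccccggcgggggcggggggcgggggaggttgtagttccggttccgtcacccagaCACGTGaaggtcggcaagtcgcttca
Timm9: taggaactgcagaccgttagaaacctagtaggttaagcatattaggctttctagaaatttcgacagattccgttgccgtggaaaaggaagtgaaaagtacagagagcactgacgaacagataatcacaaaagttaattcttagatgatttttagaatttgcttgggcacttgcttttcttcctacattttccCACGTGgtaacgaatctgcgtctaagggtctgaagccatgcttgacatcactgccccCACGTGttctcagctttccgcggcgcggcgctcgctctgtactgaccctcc
Timm50: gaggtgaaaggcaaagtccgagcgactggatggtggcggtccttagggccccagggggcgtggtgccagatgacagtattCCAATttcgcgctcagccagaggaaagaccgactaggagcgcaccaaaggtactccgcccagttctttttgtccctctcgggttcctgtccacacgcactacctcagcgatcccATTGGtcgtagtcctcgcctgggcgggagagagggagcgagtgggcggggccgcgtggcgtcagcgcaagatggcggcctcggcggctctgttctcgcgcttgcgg
Timm8b: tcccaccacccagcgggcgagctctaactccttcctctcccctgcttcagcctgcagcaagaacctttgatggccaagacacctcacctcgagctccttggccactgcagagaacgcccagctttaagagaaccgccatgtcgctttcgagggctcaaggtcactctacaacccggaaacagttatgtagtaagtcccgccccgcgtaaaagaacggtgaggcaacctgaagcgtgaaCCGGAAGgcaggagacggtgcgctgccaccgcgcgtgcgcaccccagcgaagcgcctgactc

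The windows of Timm8a1 and Timm9 each held 2 E-box matches. Those of Timm8a1 began 236 bases before and 25 bases after the start, and those of Timm9 began 58 bases and 1 base before it. The window of Timm50 held CCAAT matches 170 and 56 bases before the start, and that of Timm8b held an ETS match 12 bases before it. Over the 27 matched genes, 5 held an E-box (18.5%), against 10.5% of 10673 windows of tested genes, 13.6% of 1614 windows of genes called higher, and 7.15% of all 32851 windows. Shares of import genes are per gene, and those set beside them are per window. Of the 29 windows of import genes, 17.2% held an E-box and 44.8% an ETS match. The 27 genes include Tomm20l, with an E-box and CCAAT matches, and Timm8a2, with ETS matches, which were not tested. Timm8a1 and Timm9 were the 2 import genes with at least 2 E-boxes, and 1.18% of windows of tested genes had that many. At least 2 ETS matches were held by 6 import genes, of which Tomm70a was called (3.94% of windows of tested genes), and at least 2 CCAAT matches by 6, of which Timm50 was called (15.0%). ETS matches were present for 12 of 27 genes (44.4%), against 20.0% of windows of tested genes, 19.5% of those of genes called higher and 8.86% of all windows. Of the 6 matched genes called higher, 2 held an E-box, 1 an ETS match and 1 a CCAAT match. CCAAT was present for 9 of 27 genes (33.3%, against 38.5% of windows of tested genes and 37.4% of all) and the NRF1 core for 1, Timm13 (3.70%, against 4.24% and 1.87%). These counts describe letters in the windows, and binding was not measured.

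Expression was given as FPKM, a level corrected for the length of a gene and the depth of a library, which is meant to allow levels of different genes to be set side by side. Read counts were not among the files used here, so the depth of each library is not known. Mean read coverage per base, given by the authors for each gene, was 9.38 to 393 over samples for the 28 tested import genes, lowest for Timm10 (9.38 to 16.9) and Timm9 (10.5 to 15.4) and highest for Tomm22 (300.4 to 393). The 8 samples had 12177 to 12342 genes with an FPKM of at least 1, and FPKM sums that were 413835 to 437426 for control and 437778 to 457145 for Lck-cre samples. Sting1, given as a check of the labels, lay at 11.6 to 15.3 FPKM in the controls and at 221, 85.4, 130 and 232 FPKM in Lck-cre replicates 5 to 8. Of 8 markers of the DP stage, all were tested, 3 fell (Cd4, Rag1 and Rag2) and their sum was 5371 to 5746 FPKM in the controls and 4150 to 5377 in Lck-cre. Of 10 markers of dividing cells 9 rose, all but Mki67, and their sum was 804 to 1107 FPKM in the controls and 1280 to 1729 in Lck-cre. Of 6 myeloid and dendritic markers 2 were tested and both rose (Cd74 and H2-Aa). Testing required 1 FPKM in 4 samples, whichever group these were in. H2-Aa reached that level in the Lck-cre samples alone, and lay at 0.244 to 0.509 FPKM in the controls. Cd74 reached it in the Lck-cre samples and in control replicate 3. Both were thus tested because of their Lck-cre levels, so a fall was hardly open to them. All 6 together summed to 1.36 to 1.62 FPKM without Cre and 3.51 to 10.1 FPKM with it, most of it Cd74 and H2-Aa, so the sum largely restates these genes. The myeloid genes Lyz2 (0.136 to 0.185 FPKM in the controls and 0.297 to 0.951 in Lck-cre) and Csf1r (at most 0.0116 and 0.0221 to 0.0626) were not tested and did not overlap between groups. Itgax (0.00637 to 0.0755 and 0.0304 to 0.291 FPKM) and Xcr1 (0.0202 to 0.0450 and 0.0247 to 0.0549) were not tested either and overlapped. Among all tested genes, 17.1% were higher in Lck-cre without overlap, and the share among untested genes was not computed. Of 3 markers of the double-negative stage 1 was tested, Il2ra, with a log2 change of 0.65 (limma adjusted p = 0.0734) and overlapping groups. These 3 summed to 1.87 to 4.49 FPKM in the controls and 2.89 to 6.82 in Lck-cre, most of it Il2ra. Il7r lay at 0.103 to 0.365 and 0.226 to 0.852 FPKM, with overlap. Kit had a slightly lower mean in Lck-cre (0.682 and 0.649 FPKM), also with overlap. B cell markers summed to 0.312 to 0.451 FPKM in the controls and 0.259 to 0.419 in Lck-cre, NK markers to at most 0.0456 FPKM and erythroid markers to at most 0.136 FPKM in any sample, with Ncr1 listed at 0 in all 8. Epithelial markers summed to 3.45 to 5.55 FPKM in the controls and 3.84 to 5.13 in Lck-cre, nearly all of it Epcam. Below it, Krt8 was not tested and did not overlap between groups (0.0378 to 0.110 FPKM in the controls and 0.162 to 0.238 in Lck-cre). Psmb11 (means of 0.0508 and 0.128 FPKM), Foxn1 (0.00985 and 0.0426) and Krt5 (0.0124 and 0.0427) had higher means in Lck-cre with overlap. Stromal markers summed to 43.6 to 52.9 and 50.0 to 57.5 FPKM, nearly all of it Pecam1, so the sum is a level of that gene. Col1a1 was at most 0.154 FPKM and Col3a1 at most 0.00877 FPKM in any sample, and Pdgfra was listed at 0 in all 8. The part of cell division, of immature cells or of other cells in the differences below was not tested, and in bulk RNA fewer cells of a type and less RNA per cell cannot be told apart.

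The main comparison asked which import genes differed with the Lck-cre genotype. Of the 30 genes, 28 passed the minimum of 1 FPKM in 4 samples, 7 rose and 0 fell in Lck-cre by limma (adjusted p under 0.05), and 21 did not pass. The genes that rose were Timm8a1, Timm9, Timm50, Tomm5, Tomm40l, Pam16 and Tomm70a, with fold differences between mean FPKM of 1.18 to 1.63. They came from 4 of the 6 roles, namely the outer membrane receptors and channel, the TIM23 channel, the import motor and the small Tims. None came from the TIM22 complex or the processing peptidase, which have 2 tested genes each, too few to read a difference between roles from. The 7 were 25.0% of the tested members, while 15.4% of the 12337 genes tested were called higher and 10.4% lower, 25.8% in either direction. At an unadjusted p under 0.05 by limma, 14 of the 28 were higher and 0 lower, against 23.4% and 18.0% of all tested genes.

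Fitted log2 changes, on the log2(FPKM + 0.5) scale, were above 0 in 25 of 28 import genes, and in 52.0% of all tested genes. The median log2 change of the import genes was 0.17, against 0.01 over all tested genes. With TPM or quantile-normalized values, 22 of the 28 were above 0, and 41.6% or 48.8% of all tested genes. The groups did not overlap in 7 import genes, all higher in Lck-cre, which is 25.0% against 17.1% of all tested genes. The summed level of the 30 genes was 661 ± 27.6 FPKM in the controls and 735 ± 35.7 FPKM in Lck-cre (SD, n = 4 each), 1.11 times as high, while the sum over all genes was 1.05 times as high. With TPM values, which are scaled to the same sum in every sample, the median of the import genes was 0.11, that of all genes was -0.06, and 3 import genes rose (Timm8a1, Timm9 and Timm50). TPM also turned the balance over all genes, with 1300 called higher and 2067 lower against 1901 and 1279 with FPKM. Quantile normalization called 4 import genes higher beside 1709 of all tested genes, and median-of-ratios scaling 4 beside 1690. With TPM and with each of these scalings, the share of import genes called higher was near that of all tested genes. Without a female, control replicate 1 or Lck-cre replicate 5, 2 import genes rose by limma, namely Timm8a1 and Timm50, and 427 or 419 of all tested genes did. Without control replicate 2 or Lck-cre replicate 7, 3 import genes rose, beside 851 or 1127 of all tested genes. Without control replicate 4 there were 4, beside 1311 of all, and without Lck-cre replicate 8 there were 5, beside 1305.

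**Figure D1:**
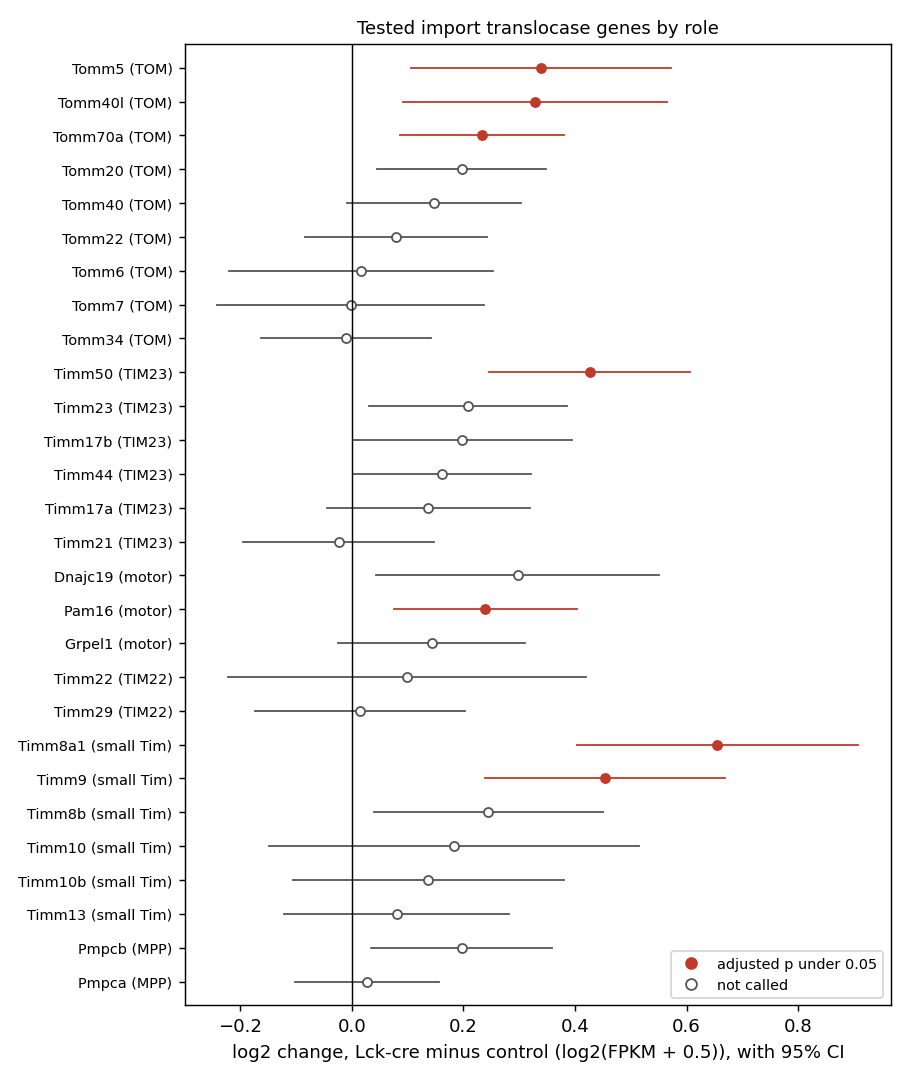
Fitted log2 change (Lck-cre minus control, on log2(FPKM + 0.5)) of the 28 tested import genes by role, with limma's 95% confidence interval. Filled red points are the 7 genes with adjusted p under 0.05, and open points the other 21. Timm8a1 (0.66) lies farthest to the right and Timm21 (-0.02) farthest to the left.

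Small Tim proteins are soluble chaperones of the intermembrane space that work as hexamers, Tim9 with Tim10 and Tim8 with Tim13. Of 7 genes, 6 were tested and 2 rose, Timm8a1 and Timm9. Timm8a1, listed on chromosome X (133438005 to 133442614, minus strand, in a build that the files do not name), is the mouse counterpart of the gene mutated in human deafness-dystonia syndrome. It lay at 4.50, 4.68, 5.47 and 5.66 FPKM in control replicates 1 to 4 and at 9.18, 6.92, 8.39 and 8.67 FPKM in Lck-cre replicates 5 to 8. All Lck-cre samples were above all controls, with replicate 6 the lowest of them. The means were 5.08 ± 0.574 and 8.29 ± 0.970 FPKM (SD, n = 4 each), a 1.63-fold difference, or 0.66 on the log2 scale (SE 0.11, limma adjusted p = 0.00873, 95% confidence interval 0.40 to 0.91). Its near relative Timm8a2, with which it could share reads, was listed at no more than 0.19 FPKM in any sample and was not tested.

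Timm9 lay at 9.61, 8.25, 9.11 and 8.66 FPKM in the controls and at 12.7, 10.4, 12.8 and 13.9 FPKM in Lck-cre. The groups did not overlap, and replicate 6 again was the lowest Lck-cre sample. The log2 change was 0.45 (SE 0.10, adjusted p = 0.0132 by limma), a 1.40-fold difference between means. Its call ended with no filter on low values (adjusted p = 0.0521 by limma), without control replicate 1 (0.0512) or Lck-cre replicate 5 (0.0517), and with males alone (0.0512).

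Timm10, whose product pairs with that of Timm9, was the lowest of the tested import genes. It lay at 2.17, 1.64, 2.64 and 1.76 FPKM in the controls and at 2.03, 2.84, 2.38 and 2.27 FPKM in Lck-cre, with overlapping groups (log2 change 0.18, 95% confidence interval -0.15 to 0.52). Timm13, whose product pairs with Tim8, was the highest of the small Tims at 47.9 ± 4.66 and 50.6 ± 4.69 FPKM (SD, n = 4 each), with overlapping groups and a log2 change of 0.08 (95% confidence interval -0.12 to 0.28). Timm8b, a second Tim8 gene, lay at 24.1, 22.1, 24.8 and 20.3 FPKM in the controls and at 26.2, 24.7, 30.9 and 26.7 FPKM in Lck-cre. It overlapped through Lck-cre replicate 6 and control replicate 3, with a log2 change of 0.24 (SE 0.09, adjusted p = 0.0751 by limma). Timm10b, which couples the Tim9 and Tim10 hexamer to the TIM22 complex, lay at 13.7 ± 1.30 and 15.2 ± 2.09 FPKM, with a log2 change of 0.14. It overlaps the gene Gm45799 on the same strand over 3086 bases, so reads could have been divided between them.

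Within-sample ratios of the hexamer partners were chosen after the values were seen and are given without a test. Timm8a1 had the largest log2 change of the tested import genes (0.66) and Timm13 a small one (0.08). A shift in their ratio follows from those values and adds no support to them. Timm8a1 was 0.0960 to 0.120 times the FPKM of Timm13 in the controls and 0.135 to 0.196 times in Lck-cre. Timm9 was 3.45 to 5.02 times the FPKM of Timm10 in the controls and 3.65 to 6.24 times in Lck-cre. So the groups did not overlap for the first ratio and overlapped for the second. Read coverage per base over samples was similar for Timm9 (10.5 to 15.4) and Timm10 (9.38 to 16.9). FPKM and coverage thus differ on the relative level of these genes, and the reason was not tested.

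**Figure D2:**
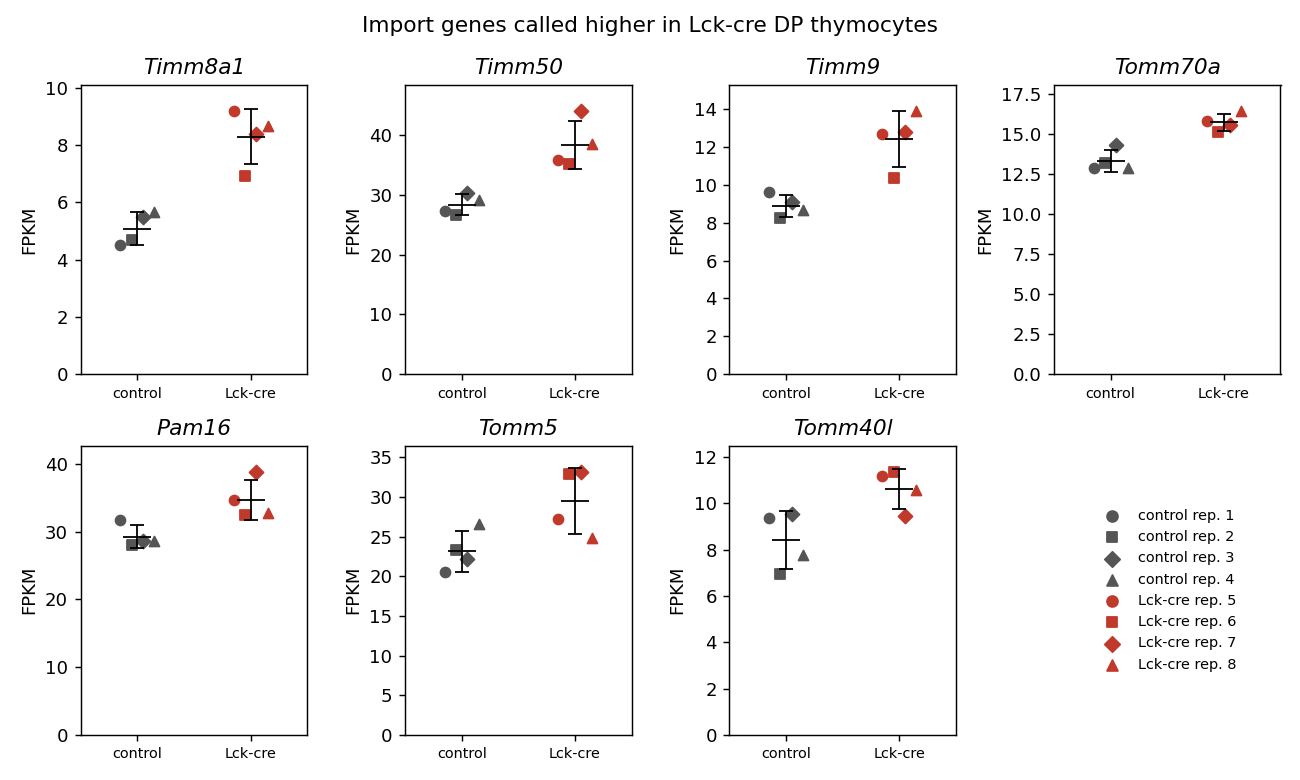
FPKM of the 7 import genes that rose in Lck-cre, in every sample (marker shapes name replicates) with the group mean and SD (n = 4 each), on axes that start at 0. The groups are apart for Timm8a1, Timm50, Timm9, Tomm70a and Pam16, and overlap for Tomm5 and Tomm40l.

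TIM23 is the channel for proteins with a presequence, built on Tim23 and Tim17, with Tim50 as the receptor that takes precursors from the TOM complex. Of its 6 genes here 1 rose, Timm50. It lay at 27.2, 26.7, 30.4 and 29.2 FPKM in the controls and at 35.8, 35.2, 44.0 and 38.6 FPKM in Lck-cre. The lowest Lck-cre sample was 35.2 FPKM and the highest control 30.4 FPKM. The log2 change of 0.43 had an SE of 0.08 and a 95% confidence interval of 0.25 to 0.61 (limma adjusted p = 0.0102), a 1.35-fold difference between means of 28.4 ± 1.72 and 38.4 ± 4.03 FPKM (SD, n = 4 each). As listed, the gene spans 28004941 to 28011497 of chromosome 7, minus strand.

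The channel subunit Timm23 lay at 40.9, 43.4, 49.7 and 45.8 FPKM in the controls and at 54.8, 47.2, 51.6 and 54.3 FPKM in Lck-cre. It was the most abundant gene of the complex, and its groups overlapped through control replicate 3 and Lck-cre replicate 6 (log2 change 0.21, SE 0.08, limma adjusted p = 0.0781), and it passed without either of these samples (0.0477 and 0.0327, in that order). Timm44, which anchors the motor to the channel, lay at 26.0, 22.7, 24.5 and 22.7 FPKM and at 26.6, 24.7, 28.4 and 27.9 FPKM (log2 change 0.16, SE 0.07, limma adjusted p = 0.114), with overlapping groups. The estimate of Timm21, which links TIM23 to the respiratory chain, was -0.02 (95% confidence interval -0.20 to 0.15), with 13.4 ± 1.02 and 13.2 ± 0.666 FPKM.

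Timm17a and Timm17b encode alternative forms of the Tim17 subunit. Timm17b lay at 14.8, 14.2, 17.2 and 16.2 FPKM in the controls and at 18.0, 17.3, 20.0 and 16.5 FPKM in Lck-cre, with overlap through Lck-cre replicate 8. Timm17a lay at 3.44, 3.43, 3.31 and 3.29 FPKM in the controls and at 3.97, 3.59, 3.93 and 3.54 FPKM in Lck-cre. Its groups did not overlap, but neither gene was called, with log2 changes of 0.14 for Timm17a and 0.20 for Timm17b (adjusted p = 0.228 and 0.118 by limma). Timm17b was the more abundant form in every sample.

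The import motor adds J-domain and regulatory proteins to the channel. Pam16, which restrains the J protein, was the 1 of 3 genes that rose. It lay at 31.7, 28.0, 28.6 and 28.7 FPKM in the controls and at 34.6, 32.5, 38.8 and 32.7 FPKM in Lck-cre. The groups were apart by less than 1 FPKM, between control replicate 1 and Lck-cre replicate 6 (log2 change 0.24, SE 0.07, limma adjusted p = 0.0402). Pam16 shares 8461 bases with Glis2 on the opposite strand, and Glis2 had a mean of 2.91 FPKM. Dnajc19, the J protein itself, lay at 8.26, 7.82, 11.1 and 8.57 FPKM in the controls and at 11.3, 9.83, 11.5 and 11.4 FPKM in Lck-cre (log2 change 0.30, SE 0.11, limma adjusted p = 0.0784). Its groups overlapped through control replicate 3, and it passed without that sample (limma adjusted p = 0.0197) or without Lck-cre replicate 6 (0.0486). The gene shares 14303 bases with Fxr1 on the opposite strand, at a mean of 37.9 FPKM. Grpel1, the nucleotide exchange factor of mortalin, lay at 12.0, 12.2, 14.2 and 12.8 FPKM and at 13.6, 13.9, 15.5 and 13.7 FPKM (log2 change 0.14, SE 0.07, limma adjusted p = 0.176), also with overlap.

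The TOM complex is the entry gate, with the receptors Tom20, Tom22 and Tom70, the channel Tom40 and the small subunits Tom5, Tom6 and Tom7. Of its 10 genes 9 were tested and 3 rose, Tomm70a, Tomm5 and Tomm40l. Tomm70a, a receptor that docks carrier precursors with their cytosolic chaperones, lay at 12.9, 13.2, 14.3 and 12.9 FPKM in the controls and at 15.8, 15.1, 15.5 and 16.4 FPKM in Lck-cre. The groups did not overlap (log2 change 0.23, SE 0.07, limma adjusted p = 0.0313).

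Tomm5 lay at 20.6, 23.3, 22.1 and 26.6 FPKM in the controls and at 27.2, 32.9, 33.1 and 24.8 FPKM in Lck-cre. Control replicate 4 lay above Lck-cre replicate 8, and the log2 change was 0.34 (SE 0.10, limma adjusted p = 0.0405). Tomm40l, a homologue of the channel gene, lay at 9.38, 6.95, 9.55 and 7.77 FPKM in the controls and at 11.2, 11.4, 9.44 and 10.6 FPKM in Lck-cre. Control replicate 3 lay above Lck-cre replicate 7, and the log2 change was 0.33 (SE 0.10, limma adjusted p = 0.0473). The calls of Tomm70a, Tomm5, Tomm40l and Pam16 ended with TPM values (adjusted p of 0.0910, 0.0872, 0.0775 and 0.0950 by limma), and with no filter. That of Tomm40l held without control replicate 3 and ended without any other 1 sample (0.0625 to 0.126), and that of Pam16 held without Lck-cre replicate 6 alone (0.0575 to 0.108 otherwise). Tomm70a held without control replicate 3 or Lck-cre replicate 6 (0.0670 to 0.115 otherwise), and Tomm5 without control replicate 4 or Lck-cre replicate 8 (0.0730 to 0.129 otherwise). Of 17 alternatives tried at adjusted p under 0.05, Tomm70a was called in 8, Tomm5 in 6, and Tomm40l and Pam16 in 5 each. Timm8a1 and Timm50 were called in all 17, and Timm9 in 13. The 17 are not independent. Males alone and the omission of either female gave the same estimates (log2 changes of 0.56 for Timm8a1 and 0.44 for Timm50). At adjusted p under 0.01, Timm8a1 was the 1 import gene called.

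Tomm40, the channel itself, lay at 38.2, 37.5, 40.0 and 36.3 FPKM in the controls and at 40.0, 39.9, 46.8 and 42.2 FPKM in Lck-cre (log2 change 0.15, SE 0.07, limma adjusted p = 0.138). The groups met between control replicate 3 and Lck-cre replicates 5 and 6. Tomm20, the presequence receptor, lay at 24.0 to 26.5 FPKM in the controls and 26.6 to 31.5 FPKM in Lck-cre, with no overlap and an adjusted p of 0.0576 by limma (log2 change 0.20), and it passed with no sex term (0.0485) or without Lck-cre replicate 8 (0.0448). The most abundant genes of the complex, Tomm6 (58.9 ± 8.71 and 59.3 ± 6.16 FPKM) and Tomm22 (57.8 ± 3.88 and 61.1 ± 4.44 FPKM), had log2 changes of 0.02 (95% confidence interval -0.22 to 0.25) and 0.08 (-0.08 to 0.24). Tomm6 overlaps Gm21981 on the same strand over 1648 bases. Tomm7 lay at 24.7 ± 4.07 and 24.5 ± 1.15 FPKM and Tomm34, a cytosolic co-chaperone of import, at 36.6 ± 2.33 and 36.3 ± 1.74 FPKM, with log2 changes of -0.0023 (95% confidence interval -0.24 to 0.24) and -0.01 (-0.16 to 0.14). Tomm20l was listed at 0 in 7 of 8 samples and was not tested.

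TIM22 inserts carrier proteins into the inner membrane, and neither of its genes here was called. Its channel gene Timm22 lay at 9.23, 12.4, 12.6 and 9.20 FPKM in the controls and at 11.0, 11.5, 14.6 and 9.50 FPKM in Lck-cre, with a log2 change of 0.10 (SE 0.14, limma adjusted p = 0.629). Timm29, which stabilizes the complex, lay at 26.5, 26.4, 26.9 and 32.9 FPKM and at 29.7, 28.9, 28.2 and 26.8 FPKM (log2 change 0.01, SE 0.08, limma adjusted p = 0.914). Both overlapped widely between groups.

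The matrix processing peptidase has a substrate-binding subunit, Pmpca, and a catalytic subunit, Pmpcb. Pmpca lay at 34.1, 34.6, 32.1 and 33.1 FPKM in the controls and at 32.4, 35.0, 34.3 and 34.9 FPKM in Lck-cre (log2 change 0.03, SE 0.06, limma adjusted p = 0.749). Pmpcb lay at 21.9, 19.4, 22.7 and 21.1 FPKM and at 22.7, 24.1, 26.0 and 25.0 FPKM (log2 change 0.20, SE 0.07, limma adjusted p = 0.0704). The groups overlapped widely for Pmpca, and for Pmpcb they met at control replicate 3 and Lck-cre replicate 5.

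Lck-cre replicate 6 had the lowest Sting1 level of its group. It was the Lck-cre sample nearest to the control mean for 13 of the 28 tested import genes (46.4%) and for 5 of the 7 that rose (71.4%). Over all 1901 genes called higher, this sample was nearest in 68.4%, so the share among the 7 is near that of called genes in general. The share over all tested genes was not computed, and a link to the Sting1 level was not tested. Without this sample 7 import genes were again called higher by limma, but Tomm5 (adjusted p = 0.0730) and Tomm40l (0.0856) were no longer among them and Timm23 (0.0327) and Dnajc19 (0.0486) were. Over all tested genes 2215 were then called higher.

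The next comparison asked whether the balance between genes of the same role differed between groups, since a ratio within a sample does not depend on scaling between samples. Log2 FPKM ratios of 5 pairs were compared by exact permutation of the group labels (two-sided, difference of means, 70 assignments, smallest possible p 0.0286), with adjustment over the 5. A ratio that differed alone could reach an adjusted p of no less than 0.143, so this design could not call a single pair. None passed. The Timm8a1 to Timm8b ratio was -2.42, -2.24, -2.18 and -1.84 in the controls and -1.51, -1.84, -1.88 and -1.62 in Lck-cre. Control replicate 4 lay within the Lck-cre range, and the mean difference was 0.46 (exact p = 0.0571, adjusted p = 0.286), with means of -2.17 ± 0.241 and -1.71 ± 0.176 (SD, n = 4 each). Timm17a to Timm17b gave -2.21 ± 0.158 and -2.25 ± 0.0708 (exact p = 0.600, adjusted p = 0.600). Tomm40 to Tomm40l gave 2.19 ± 0.184 and 1.99 ± 0.230 (exact p = 0.257, adjusted p = 0.429).

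Grpel1 was also set against its relative Grpel2, which lay at 5.51, 5.45, 4.93 and 5.24 FPKM in the controls and at 5.30, 5.15, 4.80 and 5.37 FPKM in Lck-cre, with overlapping groups. Their log2 ratio was 1.27 ± 0.180 and 1.46 ± 0.161 (exact p = 0.200, adjusted p = 0.429). Dnajc15, a J protein related to Dnajc19, was the more abundant of that pair. It lay at 37.2, 35.4, 48.1 and 32.2 FPKM in the controls and at 38.5, 46.0, 53.3 and 37.4 FPKM in Lck-cre, also with overlap. The log2 ratio of Dnajc19 to Dnajc15 was -2.10 ± 0.126 and -1.98 ± 0.274 (exact p = 0.457, adjusted p = 0.571). Lck-cre replicates 5 and 8 had the highest values of this ratio, at -1.77 and -1.72, and replicates 6 and 7 lay below all controls at -2.23 and -2.21.

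**Figure D3:**
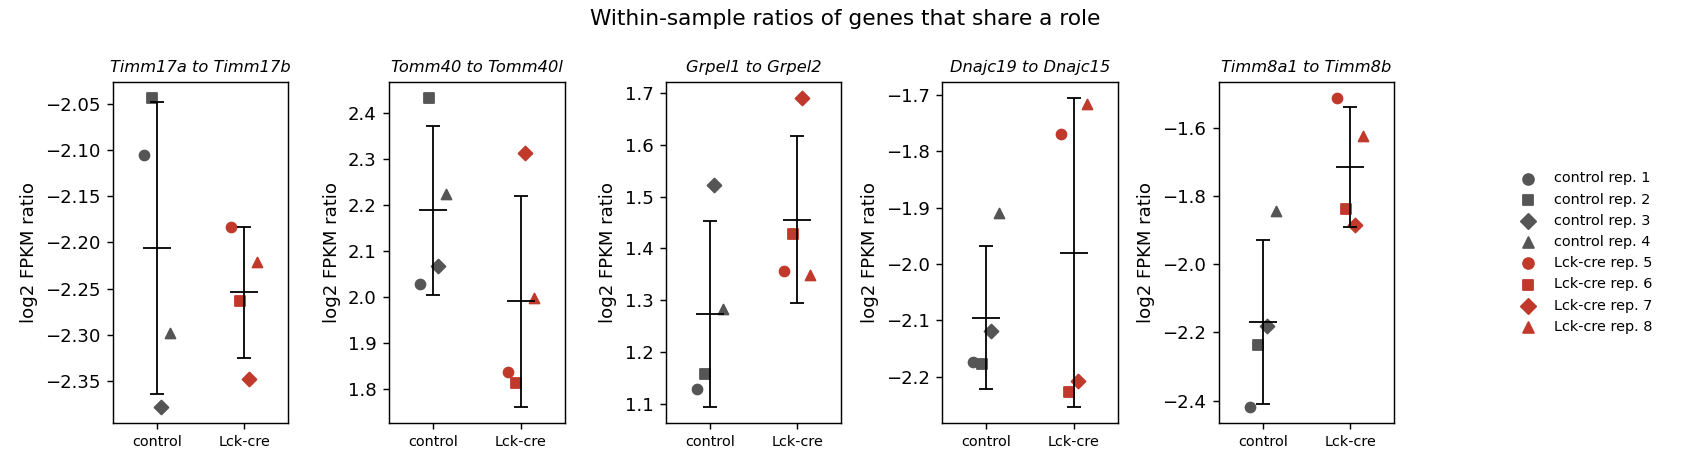
Log2 FPKM ratio of each of 5 gene pairs in every sample (marker shapes name replicates), with the group mean and SD (n = 4 each). The groups overlap in each pair, and the largest mean difference is that of Timm8a1 to Timm8b (0.46).

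A further comparison covered 25 other genes related to protein import, a broad list that includes folding chaperones of the matrix and cytosol. Of these other import genes, 24 were tested, 8 rose and 0 fell by limma (33.3% higher, against 15.4% of all tested genes). At an unadjusted p under 0.05, 9 of the 24 were higher, against 23.4% of all tested genes, and 1 was lower, against 18.0% (Xpnpep3, a mitochondrial aminopeptidase, at 5.96 ± 0.338 and 5.14 ± 0.440 FPKM, named after its values were seen). The median log2 change was 0.20. All 3 genes of matrix folding rose, as did 1 of 2 cytosolic chaperones, so chaperones made up much of the share. In the other roles, 1 of 6 partners of the TIM complexes (mortalin) and 1 of 6 genes of outer membrane sorting rose. So did 1 of 3 genes of the disulfide relay and 1 of 3 tested peptidases, but not the 1 insertase. Hspe1, the matrix co-chaperonin, lay at 31.4, 39.8, 41.8 and 48.9 FPKM in the controls and at 50.4, 61.8, 63.1 and 56.7 FPKM in Lck-cre (log2 change 0.53, SE 0.08, limma adjusted p = 0.00750). Hspd1, its partner, lay at 46.4, 61.5, 54.5 and 68.1 FPKM and at 77.4, 68.5, 79.2 and 94.1 FPKM (log2 change 0.47, SE 0.12, limma adjusted p = 0.0205). These genes start beside each other on opposite strands and overlap by 112 bases. The call of Hspd1 ended without control replicates 1 or 2 or Lck-cre replicate 5 (0.0523 to 0.0906) and with no filter (0.0826).

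Hspa9, which encodes mortalin, lay at 37.4, 43.2, 41.2 and 45.6 FPKM in the controls and at 56.2, 51.9, 59.8 and 70.8 FPKM in Lck-cre (log2 change 0.50, SE 0.09, limma adjusted p = 0.0101). Its groups did not overlap. Chchd4, the oxidoreductase of the disulfide relay that folds small Tims, lay at 2.06, 1.89, 2.10 and 2.42 FPKM in the controls and at 3.11, 2.92, 3.22 and 3.62 FPKM in Lck-cre. It rose with no overlap (log2 change 0.51, SE 0.10, limma adjusted p = 0.0129). Without control replicate 1 or Lck-cre replicate 5, the adjusted p by limma was 0.0511 to 0.0514 for Hspa9 and 0.0538 to 0.0546 for Chchd4. The other 4 that rose were Mipep, a presequence peptidase (log2 change 0.35), Hsp90ab1, a cytosolic chaperone (0.43), Trap1, a matrix chaperone (0.21), and Mtx1, of outer membrane sorting (0.20). The call of Mipep held without control replicate 3 or Lck-cre replicate 6 (0.0563 to 0.0871 without any other sample), that of Hsp90ab1 without control replicate 4 or Lck-cre replicate 6 (0.0995 to 0.176 otherwise), that of Trap1 without Lck-cre replicate 6 alone (0.0729 to 0.140 otherwise), and that of Mtx1 ended without any 1 sample (0.0502 to 0.0832). With TPM values 5 of the 25 rose, and without either female 1 did by limma, Hspe1. Immp2l lay below the minimum and was not tested.

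**Figure D4:**
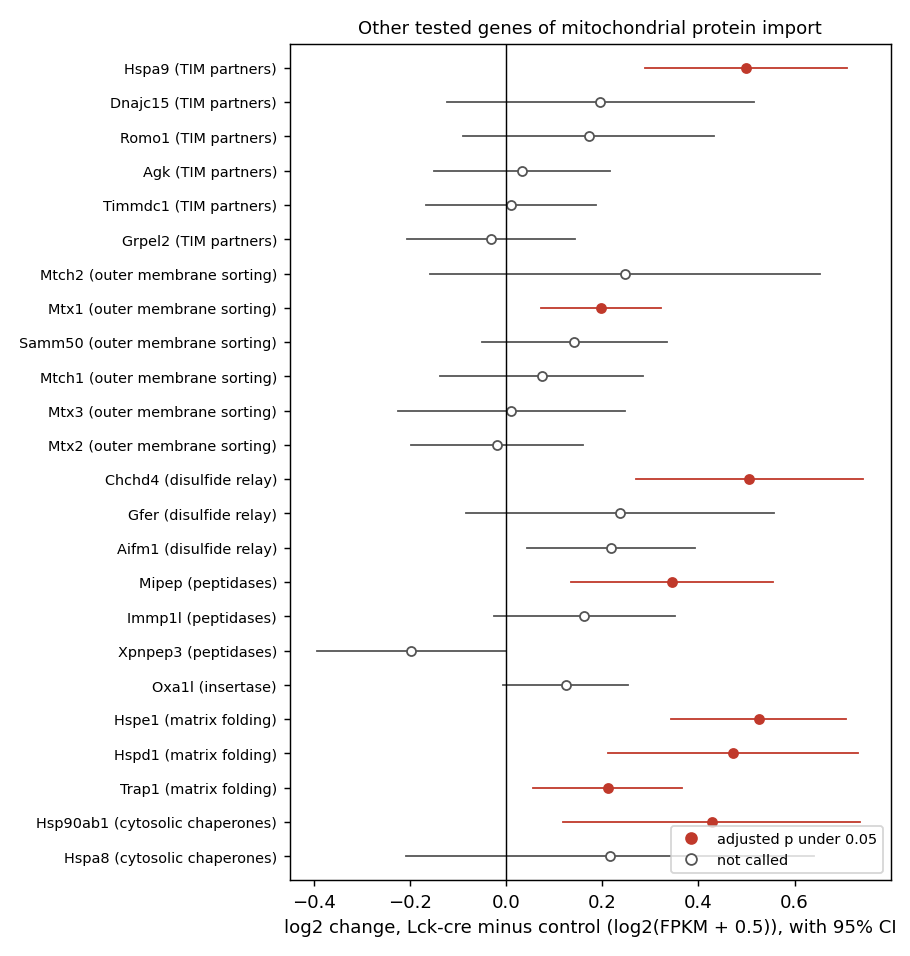
Fitted log2 change (Lck-cre minus control, on log2(FPKM + 0.5)) of the 24 other tested import genes by role, with limma's 95% confidence interval. Filled red points are the 8 genes with adjusted p under 0.05, among them all 3 of matrix folding, and no gene called lower is present.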

How the data were processed

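The 8 samples, 4 per group, were sequenced as RNA from sorted DP thymocytes. HISAT and Bowtie2 are named in the submitters' processing notes, with no version or role. The quantifier, genome build, annotation and strandedness are not stated there. The authors deposited FPKM and TPM values per gene and sample, and a coverage column giving mean read coverage per base. Coverage is given only as a sign of depth and enters no test. Values were summed over rows with the same gene ID (55361 to 55366 entries for 55359 IDs).

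Testing used R 4.3.3 and limma 3.58.1 on log2(FPKM + 0.5), for genes that reached 1 FPKM in 4 or more samples, whichever group these were in. The model held genotype and sex, with empirical Bayes moderation along a trend. Benjamini-Hochberg adjustment ran over all 12337 genes, and an adjusted p under 0.05 was called. Folds are ratios of mean FPKM. Ratios used exact permutation tests (SciPy 1.17.1). On simulated data for this comparison with 12337 genes, 70 of 100 genes raised by 0.58 (log2) and 92 of 100 raised by 1 were called, as were 10 of 12137 unchanged genes. The simulated noise was normal and independent between genes, and fewer genes changed than were called in the data. Raised genes were drawn above a minimum level. These rates therefore do not cover low genes or changes below 0.58, where all import genes but Timm8a1 lay.

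The members and lists were chosen with earlier results of these data known. Every member is accounted for. Sample values are given for the 3 with the smallest p in each role and for those in the 5 tested ratios, and, of the other import genes, for the 4 called with the smallest adjusted p. Alternatives were TPM, quantile and median-of-ratios scaling, a filter on the mean FPKM (1 or more) or none, pseudocounts of 0.1 and 1, a model without sex, the 6 males alone, omission of each sample, and adjusted p under 0.01. When a female is omitted, the sex term absorbs the other one.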

Additional observations from a re-analysis of the deposited data

Results flagged for a closer look

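4 of 86 groups of 4 samples, over the tested import genes, the named other import genes and the ratios, held a sample far from the other 3 by Dixon's 95% criterion for the gap to the nearest sample over the range, or 4.65%, and chance gives about 1 in 20. Timm29 was 32.9 FPKM in control replicate 4, against 26.4 to 26.9 in the other controls. Dnajc19 was 9.83 FPKM in Lck-cre replicate 6, against 11.3 to 11.6 in the others. Grpel1 was 15.5 FPKM in Lck-cre replicate 7, against 13.6 to 13.9. Trap1 was 32.4 FPKM in control replicate 2, against 35.0 to 35.2.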

How the results depend on the processing

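The main fit called 7 import genes higher and 0 lower, 8 and 0 of the other import genes, and 1901 and 1279 of all tested genes. Import genes called higher numbered 3 with TPM values, 4 with quantile normalization, 4 with median-of-ratios scaling, 2 with no filter, 2 with males only and 1 at adjusted p under 0.01, and 2 to 7 without 1 sample. No alternative called an import gene lower. The other import genes called higher numbered 5 with TPM, 5 with quantile normalization, 4 with no filter, 1 with males only and 1 at adjusted p under 0.01, and 1 to 9 without 1 sample. Over all tested genes, TPM gave 1300 higher and 2067 lower, quantile normalization 1709 and 1523, and median-of-ratios scaling 1690 and 1464. No filter gave 696 and 360, males only 425 and 227, adjusted p under 0.01 gave 384 and 128, and leaving out 1 sample 419 to 2215 and 226 to 1674. With no filter more genes were tested, and with males only fewer samples entered. The cause of the changes in these counts was not tested for any alternative. The median log2 change of the import genes stayed between 0.11 (TPM) and 0.19. Signs turned in 7 genes that were not called. With TPM the log2 change was -0.046 for Pmpca, -0.057 for Tomm6 and -0.059 for Timm29. With quantile normalization it was -0.010, -0.032 and -0.016, and with median-of-ratios scaling -0.0056 for Tomm6 and -0.0077 for Timm29. With males only it was 0.046 for Tomm34, 0.041 for Timm21 and -0.034 for Timm29. Without 1 sample it ran from -0.042 to 0.046 for Tomm34, -0.0015 to 0.21 for Timm22, -0.059 to 0.041 for Timm21, -0.065 to 0.11 for Tomm7, -0.081 to 0.097 for Tomm6 and -0.034 to 0.093 for Timm29. The log2 ratio difference of Timm17a to Timm17b ran from -0.11 to 0.0071 without 1 sample, and no ratio passed under any alternative, where 3 against 4 samples cannot give p below 0.0571 before adjustment. No paired analysis was possible because the groups share no replicate numbers. Coverage was lowest for Timm10 and Timm9 among the tested import genes, and without counts the counting error of such low genes was not computed.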
